A study of Homo sapiens with 8 samples.

Results

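Expression of 10 aldehyde dehydrogenase genes was followed on 8 Affymetrix arrays of human colon cancer cells. The genes were ALDH1A1, ALDH1A2, ALDH1A3, ALDH1B1, ALDH2, ALDH3A1, ALDH3A2, ALDH3B1, ALDH6A1 and ALDH7A1. They were taken as the probe sets that name exactly 1 of these symbols, 23 in all, and each gene was represented by its probe set with the highest mean over the 8 arrays. All 10 genes were measured, among 19775 genes in the whole table, and no filter on low values was applied. The arrays formed 4 groups of 2. HT29 parental cells and both SW480 lines, one carrying an empty vector and one labelled as expressing Snail, were grown in DMEM with 10% fetal bovine serum. HT29 cells labelled as first spheres were grown in DMEM-F12 without serum in the stated recipe, to which N2 Plus Supplement and the growth factors EGF and bFGF, each at 10 ng/ml, had been added. HT29 and SW480 are established lines from human colorectal adenocarcinomas. The sources used here do not give whether each SW480 stable line is 1 clone or a pool, nor the promoter that drives Snail. Nothing in the labels ties the 2 arrays of a group to separate cultures, so p-values measure the spread between arrays and that spread may be technical.

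Aldehyde dehydrogenases oxidise aldehydes to carboxylic acids with NAD or NADP as the acceptor of electrons. The ALDH1A enzymes make retinoic acid from retinaldehyde, other members clear aldehydes that come from ethanol, lipid peroxidation or drugs, and others carry out a single step in the breakdown of an amino acid. High aldehyde dehydrogenase activity, read with a fluorescent substrate, is widely used to sort stem-like cells from normal and malignant colon, and ALDH1A1 and ALDH1A3 are among the enzymes that contribute to that signal.

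ALDH1A1 and ALDH1A3 are the members whose levels ranged most widely over the groups, and the DNA just before their transcription starts is shown because the 2 genes, which encode closely related enzymes, differ there in base composition. Each sequence is the 250 bases before the RefSeq start, 5′ to 3′ on the strand of the gene, in build GRCh38.p14, at chr9:72953054-72953303 on the minus strand for ALDH1A1 and at chr15:100879581-100879830 on the plus strand for ALDH1A3. Capitals mark GCGTG, the core of the xenobiotic response element, on either strand.
ALDH1A1: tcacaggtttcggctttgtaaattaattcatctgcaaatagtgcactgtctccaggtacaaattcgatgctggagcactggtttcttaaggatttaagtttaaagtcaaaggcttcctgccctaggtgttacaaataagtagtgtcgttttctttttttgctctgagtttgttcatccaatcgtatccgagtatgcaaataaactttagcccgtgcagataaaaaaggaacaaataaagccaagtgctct
ALDH1A3: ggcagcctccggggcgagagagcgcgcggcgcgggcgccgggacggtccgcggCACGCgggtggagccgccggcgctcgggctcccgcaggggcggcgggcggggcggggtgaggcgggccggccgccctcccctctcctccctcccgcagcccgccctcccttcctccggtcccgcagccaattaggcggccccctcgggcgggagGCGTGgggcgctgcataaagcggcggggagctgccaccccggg
The ALDH1A1 stretch was 38.4% G or C with 6 CpG pairs, and 10.1% of all 35116 promoters of that length had a lower G and C content. The ALDH1A3 stretch was 82.4% G or C with 38 CpG pairs, above 98.6% of promoters. Of 5 motifs searched on both strands, ALDH1A1 held none, and ALDH1A3 held GCGTG, beginning 197 and 43 bases before the start. GCGTG was found in 32.2% of all promoters, and among the members also once for ALDH1A2 and once for ALDH3A2. The Snail-type E-box CAGGTG, present in 17.5% of all promoters, was in neither the ALDH1A1 nor the ALDH1A3 stretch. It occurred once in the stretch of ALDH6A1, in 1 of the 2 of ALDH3B1 and in both of ALDH1A2. ACGTG, the core of the hypoxia response element (18.5% of promoters), was found for ALDH1A2, ALDH1B1 and ALDH3A2, where 2 matches lie on opposite strands and overlap. TGACNNNGC, the core of the antioxidant response element (10.9%), and AGGTCA, a core bound by nuclear receptors, (12.1%) were found in none of the 11 promoters of the 8 members in the table. ALDH2 and ALDH3A1 are not in it. A match describes letters only and is not evidence of binding.

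Values are RMA expression on the log2 scale, as the authors deposited them, so a difference of 1 is 2-fold. Array medians lay between 5.50 and 5.61, and a value below them may be background, since detection was not measured. Over all genes the 2 HT29 parental arrays were the least alike (r = 0.991, with 200 genes at least 2-fold apart), and for the 10 members the median gap between partner arrays was 0.20 log2 there and 0.13 to 0.19 in the other groups. SNAI1, which encodes Snail, read 6.36 and 6.34 on the vector arrays and 6.32 and 6.38 on those labelled Snail (0.00 ± 0.15 log2, adjusted p = 0.99), so the direction of every change in SW480 rests on the label, and whether its probe set lies within the construct is not known here. In HT29, SNAI1 read 5.87 and 6.15 in parental cells and 6.93 and 7.21 in spheres (1.07 ± 0.15, limma adjusted p = 0.00032). Its highest values were thus in spheres. Of 12 colon epithelium markers, 11 or 12 lay above the array median in HT29 and 9 in SW480, where KRT20, LGALS4 and CDH17 were below it, CDH17 also on the parental arrays. Of 14 markers of other cell types, 7 to 9 lay above the array median in HT29 and 6 or 7 in SW480. LYZ was bright in HT29, with group means of 12.87 (parental) and 12.94 (spheres). PTPRC, VWF, CDH5, COL3A1 and S100B were below the median on all 8 arrays. LUM, PECAM1 and CD3E rose in spheres. Summed over the list, values were 83.6 and 84.5 log2 in parental cells against 90.6 and 88.6 in spheres. The part of these differences in the results was not tested. Group means of the 4 BioC hybridisation controls lay at 8.35 to 8.83 log2 on the parental arrays, 9.92 to 10.52 on the sphere arrays and 9.40 to 10.53 in SW480, and the other spike-ins were 0.08 to 0.43 higher on sphere than on parental arrays. On the arrays labelled Snail the spike-ins differed from the vector arrays by -0.55 to -0.19; the part of either in the results was not tested.

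In HT29 spheres ALDH1A3 was 10.8-fold lower than in parental cells on its brightest probe set, at sphere values below every array median that may be background (-1.69 log2 with the mean of both its probe sets), and ALDH6A1, ALDH7A1, ALDH2 and ALDH3B1 were 1.83-fold to 2.90-fold lower, while ALDH1A1 was 1.47-fold and ALDH1B1 1.46-fold higher. The ALDH1A1 call held in 3 of the 8 fits that each left out 1 array, with changes of 0.28 to 0.83 log2 over the 8, and the ALDH1B1 call was lost with the mean of its probe sets. In SW480 the arrays labelled Snail had 2.07-fold more ALDH1A3 signal than the vector arrays and 1.44-fold less ALDH2, a call that held in 2 of 8 such fits. Between the lines, ALDH1A1 was high in HT29 and below every array median in SW480, and ALDH3B1, ALDH3A1, ALDH2 and ALDH3A2 were also lower in SW480, whereas ALDH1B1 and ALDH1A3 were higher. ALDH1A2 did not pass in any comparison. The samples were RNA of whole cultures, in which fewer cells expressing a gene and less RNA of it per cell cannot be told apart.

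**Figure D1:**
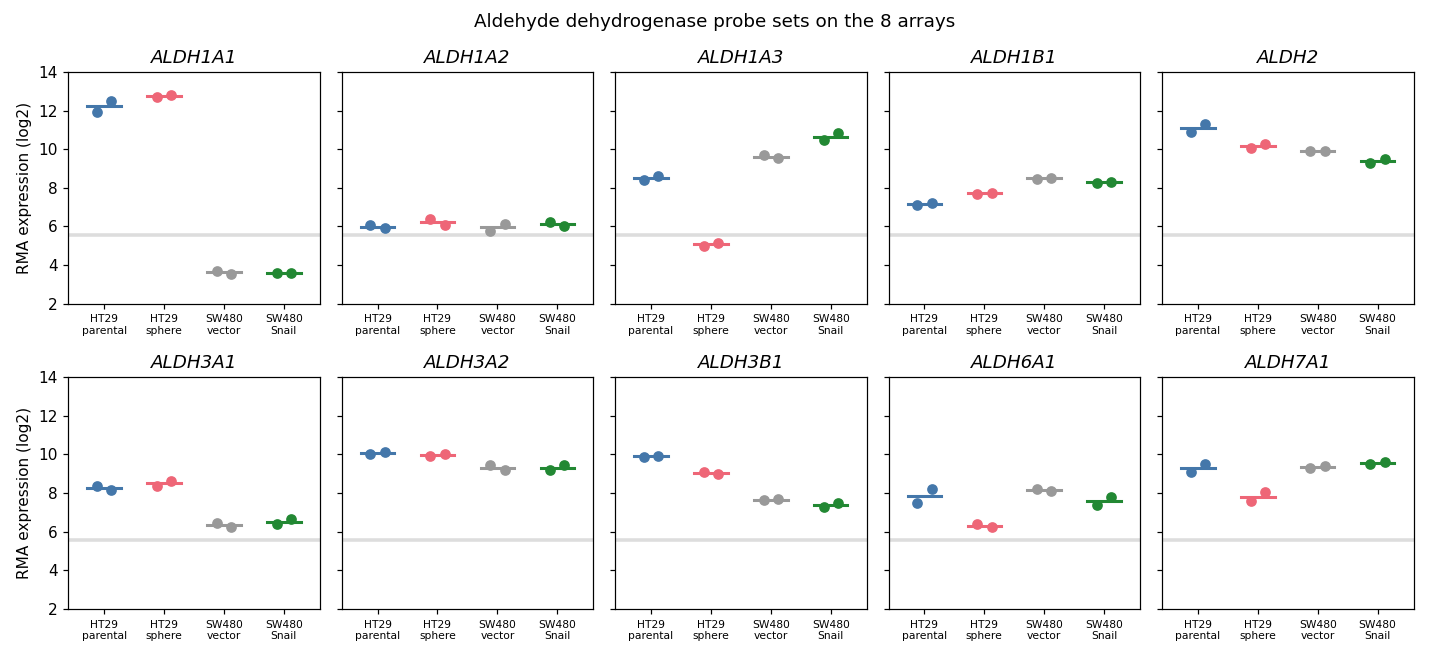
RMA expression (log2) of the 10 genes on the 8 arrays. Points are single arrays, horizontal lines group means of 2 arrays, and the grey band spans the 8 array medians (5.50 to 5.61). ALDH1A1 lies near 12 to 13 in HT29 and below the band in SW480, and ALDH1A3 lies below the band in HT29 spheres only.

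ALDH1A1, the cytosolic retinaldehyde dehydrogenase most often used as a stem cell marker, read 11.94 and 12.49 in HT29 parental cells, 12.72 and 12.81 in spheres, 3.71 and 3.53 in SW480 vector cells, and 3.57 and 3.61 on the arrays labelled Snail. The order of means was spheres, parental cells, vector cells and the arrays labelled Snail. Both sphere arrays lay above both parental arrays, and the 2 SW480 groups overlapped. The rise in spheres was 0.55 ± 0.17 log2 (limma adjusted p = 0.034). Its size equalled the 0.55 log2 gap between the 2 parental arrays: without parental array 1 it was 0.28 (adjusted p = 0.18) and without parental array 2 it was 0.83 (adjusted p = 0.0030). The call was also lost without sphere array 1 (0.60), sphere array 2 (0.51), or either array labelled Snail (adjusted p = 0.054), with HT29 fitted alone (adjusted p = 0.070) and with quantile normalization (0.50, adjusted p = 0.070). In SW480 the change was -0.03 ± 0.17 (adjusted p = 0.94, 95% interval -0.42 to 0.36), between values that may be background. The difference between the lines, -8.59 ± 0.17 log2 for vector against parental cells (adjusted p = 4.1e-10), ranked 1 of 19775 genes from the lowest. The corresponding 386-fold rests on SW480 values that lay below every array median.

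ALDH1A3 makes retinoic acid from the same substrate. Its probe set 203180_at read 8.39 and 8.61 in HT29 parental cells, 4.99 and 5.16 in spheres, 9.67 and 9.52 in SW480 vector cells, and 10.47 and 10.83 on the arrays labelled Snail. No 2 groups overlapped, and the order was arrays labelled Snail, vector, parental, spheres. In HT29 it fell by 3.43 ± 0.16 log2 in spheres (adjusted p = 4.8e-07), ranking 14 of 19775 genes from the lowest, to values below every array median. In SW480 it rose by 1.05 ± 0.16 (adjusted p = 0.0018), and the difference between these 2 changes was 4.48 ± 0.22 (adjusted p = 1.8e-06). Vector cells stood 1.09 ± 0.16 above parental HT29 cells (adjusted p = 0.00022). A dimmer probe set, 1558649_at, read below the array median on all 8 arrays; it too was higher with the Snail label, by 0.85 ± 0.14 (adjusted p = 0.0025 over probe sets), and changed by 0.06 ± 0.14 in spheres (adjusted p = 0.79). With the mean of both probe sets the fall in spheres was -1.69, the difference of the changes 2.64 and the difference between lines 0.63, all still past the threshold. ALDH1A1 and ALDH1A3 therefore had different orders over the 4 groups: ALDH1A1 was highest where ALDH1A3 was lowest, in spheres.

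ALDH1A2, the retinaldehyde dehydrogenase of embryonic mesoderm, read 6.06 and 5.94 in parental cells, 6.38 and 6.07 in spheres, 5.77 and 6.13 in vector cells, and 6.21 and 6.05 with the Snail label. Each group overlapped its neighbour in the order of means, and the 4 means spanned 0.27 log2. The changes were 0.22 ± 0.16 in spheres (adjusted p = 0.34, 95% interval -0.14 to 0.58) and 0.18 ± 0.16 with the Snail label (adjusted p = 0.51, -0.18 to 0.54).

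ALDH1B1 and ALDH2 are mitochondrial and both oxidise acetaldehyde; ALDH2 is the main enzyme of ethanol breakdown after alcohol dehydrogenase, and ALDH1B1 is known from intestinal progenitor cells and colon tumours. ALDH1B1 read 7.11 and 7.21 in parental cells, 7.70 and 7.72 in spheres, 8.46 and 8.53 in vector cells, and 8.24 and 8.32 with the Snail label, with no overlap between any groups. It rose by 0.55 ± 0.12 in spheres (adjusted p = 0.0059) and stood 1.33 ± 0.12 higher in vector than in parental cells (adjusted p = 7.9e-06). In SW480 it changed by -0.21 ± 0.12 (adjusted p = 0.28). Its second probe set, 209646_x_at, of a class that can hybridise to related transcripts, passed in none of these comparisons, and the mean of both gave 0.33 in spheres (adjusted p = 0.082) and 0.67 between the lines.

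ALDH2 read 10.88 and 11.28 in parental cells, 10.07 and 10.28 in spheres, 9.89 and 9.92 in vector cells, and 9.29 and 9.47 with the Snail label. The groups did not overlap, and parental cells, lowest for ALDH1B1, were highest for ALDH2. ALDH2 fell by 0.90 ± 0.16 in spheres (adjusted p = 0.0015), and vector cells stood at -1.17 ± 0.16 against parental cells (adjusted p = 0.00014). In SW480 it fell by 0.53 ± 0.16 (adjusted p = 0.048), the weakest call among the members: it was lost on leaving out Snail array 1 (-0.44), vector array 1 (-0.54), Snail array 2 (-0.61) or vector array 2 (-0.51), with adjusted p from 0.11 to 0.24, without either sphere array (adjusted p = 0.063), and after centring each array on its median (adjusted p = 0.058). The difference between its 2 falls was not past the threshold (0.38 ± 0.22, adjusted p = 0.25).

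Among the ALDH3 enzymes, which act on aromatic and fatty aldehydes, the brightest probe set of each differed most between the cell lines. For ALDH3B1 this depended on the probe set. ALDH3A1, a cytosolic enzyme that also oxidises the active form of cyclophosphamide, read 8.37 and 8.18 in parental cells, 8.37 and 8.63 in spheres, 6.47 and 6.26 in vector cells, and 6.40 and 6.66 with the Snail label. All HT29 values lay above all SW480 values, and the SW480 groups overlapped. Vector cells stood 1.91 ± 0.15 log2 below parental cells (-1.91, adjusted p = 3.3e-06), while spheres changed by 0.23 ± 0.15 (adjusted p = 0.30, 95% interval -0.11 to 0.57) and the Snail label by 0.17 ± 0.15 (adjusted p = 0.53).

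ALDH3A2, the fatty aldehyde dehydrogenase of the endoplasmic reticulum, read 10.01 and 10.14 in parental cells, 9.92 and 10.00 in spheres, 9.44 and 9.18 in vector cells, and 9.18 and 9.47 with the Snail label. It was lower in vector than in parental cells (-0.77 ± 0.15, adjusted p = 0.0016) and did not pass in spheres (-0.12 ± 0.15, adjusted p = 0.61) or with the Snail label (0.01 ± 0.15, adjusted p = 0.97). Its other 2 probe sets gave -0.38 ± 0.13 and -0.42 ± 0.16 with the Snail label, with adjusted p of 0.085 and 0.10, so the sign in SW480 depends on the probe set.

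ALDH3B1, a membrane-bound enzyme for lipid-derived aldehydes, read 9.89 and 9.92 in parental cells, 9.09 and 8.98 in spheres, 7.62 and 7.68 in vector cells, and 7.30 and 7.50 with the Snail label. The groups did not overlap and stood in that order. It fell by 0.87 ± 0.13 in spheres (adjusted p = 0.00047), stood at -2.25 ± 0.13 in vector against parental cells (adjusted p = 2.4e-07) and changed by -0.25 ± 0.13 with the Snail label (adjusted p = 0.22). Probe set 211004_s_at passed in both comparisons within a line, at -0.44 ± 0.13 in spheres (adjusted p = 0.029) and -0.54 ± 0.13 with the Snail label (adjusted p = 0.022), but not between the lines (-0.17, adjusted p = 0.34). The third, 1565731_at, gave 0.39 in spheres (adjusted p = 0.14) and, between the lines, 0.30 (adjusted p = 0.20), of opposite sign to the other 2. The mean of all 3 gave -0.31 in spheres (adjusted p = 0.063) and, between the lines, -0.71. The difference between the 2 changes, 0.62 ± 0.18 (adjusted p = 0.028), was 0.00 with that mean (adjusted p = 0.99) and lost its call on leaving out Snail array 2 (0.52), sphere array 2 (0.56), vector array 1 (0.59), vector array 2 (0.65) or sphere array 1 (0.67).

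ALDH6A1 and ALDH7A1 are the members that work in amino acid breakdown, and both fell in spheres on nearly every probe set. ALDH6A1, the mitochondrial enzyme that converts methylmalonate semialdehyde in the breakdown of valine, read 7.46 and 8.22 in parental cells, 6.38 and 6.23 in spheres, 8.22 and 8.12 in vector cells, and 7.38 and 7.79 with the Snail label. Both sphere arrays lay below all others, and the parental arrays, 0.76 log2 apart, overlapped both SW480 groups. It fell by 1.54 ± 0.23 in spheres (adjusted p = 0.00052), and 4 of its 5 probe sets fell, from -1.22 to -2.27; the fifth, 204289_at, lay below the median on all 8 arrays and gave -0.35. The SW480 change was -0.58 ± 0.23 (adjusted p = 0.12), with an adjusted p of 0.040 with array weights, 0.046 with SW480 fitted alone, and 0.032 without either parental array. Vector against parental cells gave 0.33 ± 0.23 (adjusted p = 0.28), but 0.71 without parental array 2 (adjusted p = 0.016) and -0.05 without parental array 1 (adjusted p = 0.84).

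ALDH7A1, antiquitin, acts in lysine breakdown and also oxidises betaine aldehyde. It read 9.08 and 9.49 in parental cells, 7.60 and 8.04 in spheres, 9.32 and 9.38 in vector cells, and 9.49 and 9.62 with the Snail label. The sphere arrays stood apart below the rest, and vector and parental cells overlapped. It fell by 1.47 ± 0.18 in spheres (adjusted p = 0.00014), and its other 2 probe sets fell by 1.32 ± 0.19 and 1.38 ± 0.22. In SW480 it changed by 0.21 ± 0.18 (adjusted p = 0.50), and the difference between the 2 changes was 1.67 ± 0.25 (adjusted p = 0.00081).

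**Figure D2:**
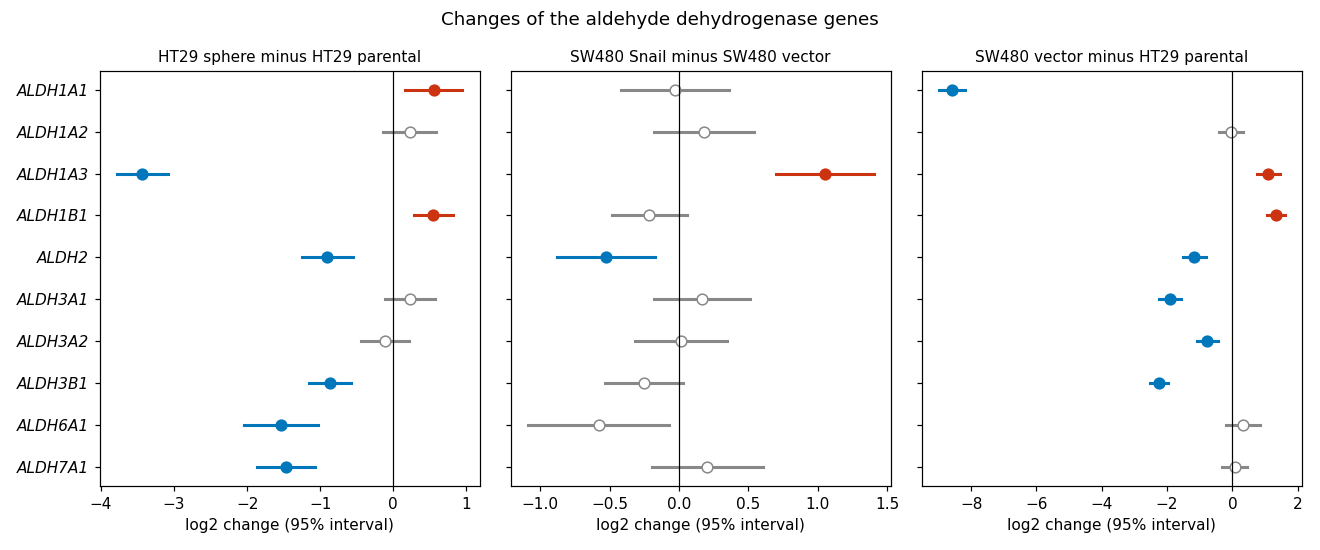
Changes of the 10 genes (log2) in 3 comparisons, with 95% intervals from limma. Red and blue filled points passed an adjusted p of 0.05 upward and downward, and grey open points did not; the 3 horizontal axes differ in scale. ALDH1A3 is lowest in the sphere comparison (-3.43) and the only red point in the SW480 comparison (1.05).

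In the sphere comparison 5 of 10 members fell (19.0% of all genes did), 2 rose (12.4% did) and 3 did not pass, against 31.4% of all genes called in either direction. These shares include dim genes. Without the dimmest 40%, 3743 of the remaining genes fell and 2271 rose, beside 3752 and 2448 of all genes. The shares are therefore larger among brighter genes, while the members still numbered 5 lower and 2 higher. The members thus stand less far above the brighter genes than above all genes. The median change of the members was -0.49 log2, and that of all genes 0.04. Parental and sphere arrays did not overlap for any of the 10, as for 62.9% of all genes. For the 3 that did not pass, the closest parental and sphere arrays nearly met. They read 6.056 and 6.066 for ALDH1A2, 8.367 and 8.373 for ALDH3A1, and 10.011 and 10.003 for ALDH3A2. Of the members, 3 passed with a change of at least 2-fold, as did 10.2% of all genes. Culture medium changed together with sphere growth, and the 2 cannot be told apart.

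With the Snail label 1 member rose (8.91% of all genes did), 1 fell (7.34% did) and 8 did not pass, a share of calls near the 16.2% of all genes. Of the members, 1 passed with a change of at least 2-fold, as did 3.32% of all genes. The median change was -0.01 log2 for the members and 0.01 for all genes, and arrays did not overlap for 6 of 10 members and 60.4% of all genes. SW480 vector and HT29 parental cells differed in 7 of 10 members, of which 5 were lower and 2 higher in SW480, beside 46.1% of all genes (23.5% lower, 22.6% higher). The members' median there was -0.41 log2 and that of all genes 0.07. A difference of at least 2-fold that also passed was seen for 6 of 10 (18.9% of all genes), and arrays did not overlap for 7 of 10 (72.2% of all genes). Cell line and stable transfection cannot be told apart in that comparison. The sphere and the between-line comparison share the parental arrays, and the Snail and the between-line comparison share the vector arrays. The difference of the Snail and sphere changes passed for 4 members (27.5% of all genes), upward for ALDH1A3, ALDH7A1 and ALDH3B1 and downward for ALDH1B1 (-0.76 ± 0.17, adjusted p = 0.0077). Averaged over its probe sets, ALDH1B1 gave -0.19 (adjusted p = 0.50). ALDH6A1 missed the threshold at 0.96 ± 0.32 (adjusted p = 0.051) and passed in 6 of the alternative settings tried, besides 2 that left out an array, and ALDH1A1, at -0.59 ± 0.25 (adjusted p = 0.11), passed without parental array 2 (-0.86, adjusted p = 0.0093).

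**Figure D3:**
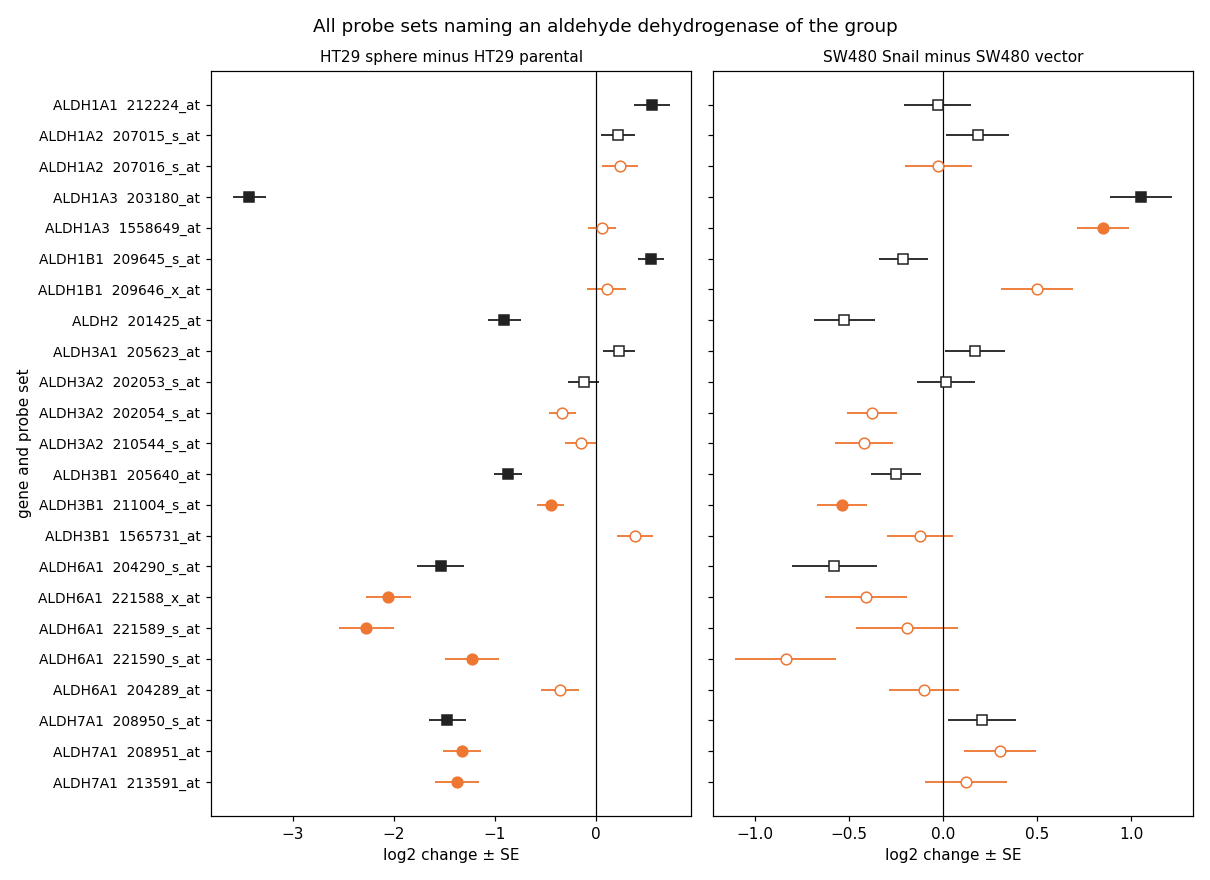
Changes (log2 ± SE) of all 23 probe sets that name 1 of the 10 genes, in spheres against parental HT29 cells and with the Snail label against vector in SW480. Black squares are the probe sets used and orange circles the others; filled symbols passed an adjusted p of 0.05 over 41091 probe sets. All 3 probe sets of ALDH7A1 and 4 of 5 of ALDH6A1 are filled and left of 0 in spheres, and both of ALDH1A3 are filled and right of 0 in SW480.

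The probe sets of a gene were also tested over all 41091 probe sets naming 1 gene, of which 27.3% passed in spheres, 14.1% with the Snail label and 42.4% between the lines. ALDH1A1, ALDH2 and ALDH3A1 had 1 probe set each and so no second reading. The ALDH2 call with the Snail label was not past the threshold in that table (adjusted p = 0.056). ALDH1A2 had 2 probe sets, and the dimmer one, below the median on all 8 arrays, was higher in vector than in parental cells (0.51, adjusted p = 0.039). ALDH7A1 had 1 probe set of 3, 213591_at, that was lower in vector than in parental cells (-1.10 ± 0.22, adjusted p = 0.0017), with the other 2 at 0.06 and 0.24. For ALDH6A1 the difference of the Snail and sphere changes depended on the probe set. It passed on 221588_x_at (1.64, adjusted p = 0.0030) and 221589_s_at (2.08, adjusted p = 0.0026). It did not pass on the probe set used, on 221590_s_at (0.38, adjusted p = 0.52) or on 204289_at (0.25, adjusted p = 0.56).

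Of the 9 other aldehyde dehydrogenases measured, 4 fell, 1 rose and 4 did not pass in spheres (median -0.41), beside the 19.0% of all genes that fell and the 12.4% that rose. The related gene lists are read against the same shares, which were 8.91% higher and 7.34% lower with the Snail label, and 22.6% higher and 23.5% lower between the lines. All of these shares include dim genes. ALDH4A1, the mitochondrial enzyme that completes proline breakdown, fell by 2.16 ± 0.13 (adjusted p = 2.0e-06), from 8.66 to 6.51. ALDH3B2 rose by 0.75 ± 0.16 (adjusted p = 0.0055) but lay below the median on all 8 arrays. In SW480 2 were lower with the Snail label and 7 did not pass: ALDH4A1 fell by 0.69 ± 0.13 and ALDH16A1 by 0.62 ± 0.14. Vector cells were lower than parental cells for ALDH18A1, which makes the precursor of proline (-0.76 ± 0.15), and for ALDH4A1 (-0.51 ± 0.13), with 7 of 9 not past.

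Genes of retinoid synthesis and response, the pathway of the ALDH1A enzymes, numbered 27 measured, of which 5 rose, 5 fell and 17 did not pass in spheres (median -0.02), shares near those of all genes (12.4% and 19.0%). DHRS9, a retinol dehydrogenase, rose by 4.18 ± 0.15 and RARRES1, a retinoic acid-induced gene, fell by 4.61 ± 0.15, to 5.03, below the array medians. In SW480, 6 rose, 1 fell and 20 did not pass with the Snail label (median 0.15); RETSAT, retinol saturase, rose by 0.95 ± 0.12 and FABP5, a fatty acid and retinoic acid carrier, fell by 0.60 ± 0.13. STRA6, the receptor for retinol uptake, and DHRS3, which returns retinaldehyde to retinol, moved in opposite directions in the 2 comparisons, as ALDH1A3 did: STRA6 by -2.10 in spheres and 1.14 with the Snail label (difference 3.24 ± 0.24, adjusted p = 1.4e-05), and DHRS3 by -1.09 and 1.00 (difference 2.09 ± 0.26, adjusted p = 0.00023). Both were chosen after their values were seen, and how many of the 27 moved in this way was not counted. DHRS9 and RARRES1 did not. DHRS9 read 5.80 in both SW480 groups, and RARRES1 read 4.15 in vector cells and 3.85 with the Snail label, below the array medians. Between the lines 12 of 27 were lower and 4 higher in vector cells, with PLAAT4, another retinoid-induced gene, at -4.72 ± 0.13 and FABP5 at 1.53 ± 0.13.

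Most genes of a list around ALDH6A1, chosen with earlier results of these data known, also fell in spheres. Of 24 genes of valine, other branched-chain amino acid and propionate breakdown, 15 fell, 1 rose and 8 did not pass (median -0.59, against 0.04 for all genes). PCCA, a subunit of propionyl-CoA carboxylase, fell by 1.65 ± 0.14 (adjusted p = 1.5e-05), and MMAA, which handles the cobalamin cofactor, rose by 1.03 ± 0.18. HIBCH and HIBADH, the 2 steps before ALDH6A1 in valine breakdown, fell by 1.37 and 0.57; they were picked for their place in the pathway after values were seen. In SW480, 5 rose, 3 fell and 16 did not pass, with HSD17B10 at 0.93 ± 0.13 and ACAD8, which acts on a valine-derived acyl-CoA, at -0.69 ± 0.15. Between the lines 12 of 24 were lower and 1 higher in vector cells: ACAA2 stood at -1.40 ± 0.12 and ABAT, which degrades GABA, at 2.98 ± 0.22.

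In lysine breakdown and betaine synthesis, the setting of ALDH7A1, 6 of 10 genes fell in spheres, 1 rose and 3 did not pass (median -0.60). HADH, a hydroxyacyl-CoA dehydrogenase, fell by 1.73 ± 0.16 and OGDH, the oxoglutarate dehydrogenase subunit, rose by 0.53 ± 0.13. In SW480 OGDH fell by 0.59 ± 0.13 and AADAT, an aminoadipate aminotransferase, by 0.66 ± 0.16, and 8 did not pass. Between the lines 5 were higher and 3 lower in vector cells, led by AADAT at 1.86 ± 0.16 and PHYKPL at -1.26 ± 0.16.

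**Figure D4:**
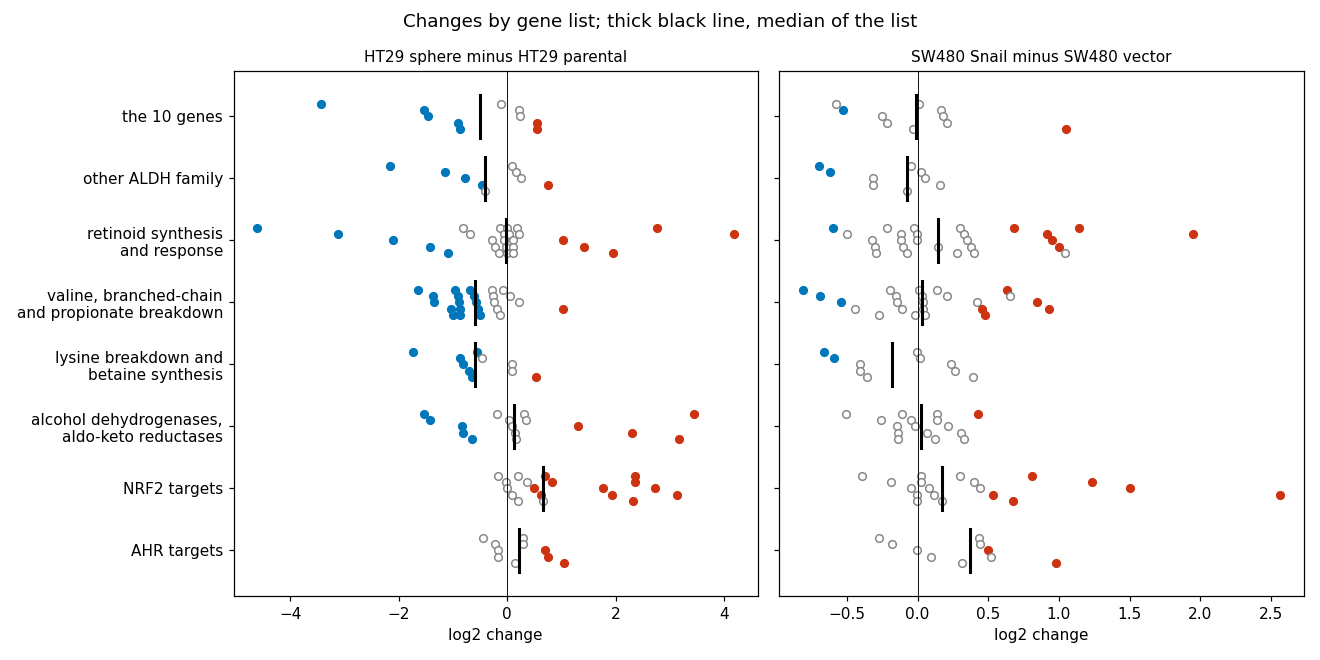
Changes (log2) of the 10 genes and of 7 related gene lists in spheres and with the Snail label. Each point is a gene, filled red or blue where it passed an adjusted p of 0.05 upward or downward and open grey where it did not, and thick black lines are list medians. In spheres the medians of the 10 genes (-0.49), of valine and propionate breakdown (-0.59) and of lysine breakdown (-0.60) lie left of 0. That of the list labelled NRF2 targets (0.66), which also holds NRF2 itself and KEAP1, lies right of it.

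The genes whose profile over the 8 arrays was closest to ALDH1A1, among 6400 whose group means spanned at least 2-fold, were CEACAM1 (Pearson r = 0.9996), TMPRSS4 (0.9994) and APOH (0.9994). The 8 arrays fall into 2 clusters by cell line for these genes, so r mainly records that separation: CEACAM1 stood at 11.07 and 11.19 in the HT29 groups and at 7.64 and 7.60 in the SW480 groups. Closest to ALDH1A3 were IKBIP (0.9990), SLC25A51 (0.9971) and HNRNPLL (0.9944). IKBIP followed the same order, with group means of 7.75 (labelled Snail), 7.23 (vector), 6.50 (parental) and 4.51 (spheres). These coefficients describe 8 arrays of 4 groups and carry no test.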

How the data were processed

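Total RNA of 8 samples had been hybridised to arrays with 54675 probe sets. The deposited values are log2 expression; per the submitters' processing notes the authors used RMA, whose version is not given in the sources used here. No further scaling was applied. Depth has no counterpart on arrays: 2 arrays per group limit the precision. GEO's platform annotation named 1 gene for 41091 probe sets, several for 1801 and none for 11721, and 62 were controls; Entrez identifiers of 41037 matched RefSeq (GRCh38.p14), which changed 0 symbols. Probe sets with several genes or none were left out. Probes of related family members (the ALDH3B and AKR1C genes) may share signal.

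limma 3.58.1 in R 4.3.3 fitted a mean per group to all 8 arrays (4 residual and 6.10 prior degrees of freedom), two-sided, with Benjamini-Hochberg adjustment over 19775 genes and a threshold of 0.05. Means are over 2 arrays, and changes are given ± SE. An exact test of 2 arrays against 2 cannot go under p = 0.333 and was not used. The fit was tested on simulated data. The related lists held 152 entries, of which 141 were measured, in 9 lists: other family members, retinoid, branched-chain, lysine, alcohol dehydrogenase and aldo-keto reductase, NRF2, AHR, colon epithelium and other cell type genes. The text names all members, up to 2 genes per list and comparison with the lowest adjusted p among those past the threshold (1 per direction where both passed), the 3 closest profiles of the 2 most variable members, and others where stated. The members and lists were chosen with earlier results of these data known. Promoter sequences came from RefSeq. Same-numbered arrays are not said to be paired. Alternatives were array weights, trended and robust moderation, each line fitted alone, the mean of a gene's probe sets, median centring, quantile normalization, a filter on the dimmest genes, a replicate block and leaving out each array.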

Additional observations from a re-analysis of the deposited data

How the results depend on the processing

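The 20 calls among 40 tests of members kept their direction under every alternative run. Of the 8 member counts, those that left 1.5 times their value did so as follows. The count of members higher in spheres, 2, was 1 with each line fitted alone, with the mean of all probe sets and with quantile normalization, and 1 to 2 on leaving out an array. The count lower with the Snail label, 1, was 2 with array weights and with each line fitted alone, 0 with median centring, and 0 to 2 on leaving out an array. The count lower in the difference of the 2 changes, 1, was 0 with the mean of all probe sets and 1 to 2 on leaving out an array. With the replicate block the sphere comparison kept 2 higher and 5 lower members; same-numbered arrays did not deviate together (correlations of 0.03 in HT29 and -0.03 in SW480), so the numbers were not taken as pairs, and the block raised the higher members in the difference from 3 to 4. Over all genes, leaving out 1 array lowered the rises with the Snail label from 1762 to as few as 755 and the falls from 1451 to as few as 617, and the rises in spheres from 2448 to 1593 without sphere array 1; such fits leave 1 array in a group, which is assumed to vary like the others.

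Changes not past the threshold turned sign in these cases. With the mean of all probe sets the Snail label gave 0.14 for ALDH1B1 and -0.26 for ALDH3A2, vector against parental cells gave 0.23 for ALDH1A2 and -0.27 for ALDH7A1, and the difference gave -0.066 for ALDH3A2. Quantile normalization gave -0.016 for ALDH3A2 with the Snail label. Median centring gave -0.035 for ALDH7A1 between the lines and 0.023 for ALDH1A2 in the difference. On leaving out an array, the difference ran from -0.22 to 0.14 for ALDH1A2, -0.19 to 0.065 for ALDH3A1 and -0.014 to 0.27 for ALDH3A2; the Snail change from -0.12 to 0.063 for ALDH1A1 and -0.13 to 0.16 for ALDH3A2; and the change between lines from -0.23 to 0.13 for ALDH1A2, -0.055 to 0.71 for ALDH6A1 and -0.14 to 0.26 for ALDH7A1. The cause was not tested.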

Other observations

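Of 16 measured alcohol dehydrogenases and aldo-keto reductases, which also handle aldehydes, 4 rose, 5 fell and 7 did not pass in spheres, where 12.4% of all genes rose and 19.0% fell. AKR1C2, a steroid and carbonyl reductase, rose by 3.44 ± 0.20 log2 and ADH1C, an alcohol dehydrogenase, fell by 1.53 ± 0.16, although ADH1C lay below the array median on all 8 arrays and the AKR1C genes are near-identical copies whose probes may share signal. In SW480 only ADH4 of the 16 passed (0.43 ± 0.12). Between the lines 10 of 16 were lower in vector than in parental cells and 6 did not pass, with AKR1C3 at -7.78 ± 0.27 and AKR1B10, a retinaldehyde reductase, at -6.03 ± 0.17; both lay below the array medians in SW480, where their values may be background.

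ALDH3A1 is known as a gene that responds to the aryl hydrocarbon receptor and to NRF2, and its level in spheres did not pass the test. Of 19 NRF2 genes 11 rose in spheres (12.4% of all genes did) and 8 did not pass, with HMOX1, the heme oxygenase, at 3.13 ± 0.17 and GCLM, of glutathione synthesis, at 2.36 ± 0.12. The list also holds NRF2 itself and its regulator KEAP1, and KEAP1 read 8.90 in parental cells and 9.72 in spheres. In SW480, 6 rose with the Snail label (8.91% of all genes did) and 13 did not pass, with SLC7A11, the cystine transporter, at 2.56 ± 0.29 and ME1, malic enzyme, 2.83-fold higher. Between the lines 9 were lower and 3 higher in vector cells, with SLC7A11 at -4.69 ± 0.29 and KEAP1 at 0.64 ± 0.13. For SLC7A11 the standard deviation of the 2 parental arrays was 0.85, and its vector mean of 5.67 lay near the array medians. Of 10 genes of the aryl hydrocarbon receptor pathway, 3 rose in spheres and 7 did not pass, with its repressor AHRR at 1.04 ± 0.15 and CYP1A2 at 0.69 ± 0.14. With the Snail label AHRR (0.98 ± 0.15) and TIPARP (0.50 ± 0.13) rose and 8 did not pass. Between the lines 5 were lower and 3 higher in vector cells, AHR itself at -2.33 ± 0.13 and SLC7A5 at 1.16 ± 0.27. For SLC7A5 the standard deviation of the 2 parental arrays was 0.75.

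Of the 12 colon epithelium markers 5 rose and 1 fell in spheres, with CDH17 at 4.74 ± 0.15 and VIL1 at -0.77 ± 0.17. In SW480, 3 rose and 1 fell with the Snail label (KRT8 at 0.57 ± 0.12, VIL1 at -1.06 ± 0.17). Between the lines 7 were lower and 1 higher in vector cells, with LGALS4, below the array medians in SW480, at -7.78 ± 0.21 and CDX2 at 1.11 ± 0.19. Of the 14 markers of other cell types 3 rose in spheres, led by LUM, below the array medians in parental cells, at 3.78 ± 0.15 and PECAM1 at 0.57 ± 0.16. With the Snail label ACTA2 rose by 0.73 ± 0.13, and LYZ (-0.46 ± 0.12) and PECAM1 fell; PECAM1 there was named after its value was seen. Between the lines 2 were higher and 3 lower in vector cells, with PECAM1 at 1.07 ± 0.16 and LYZ at -6.72 ± 0.12.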
